A study of Mus musculus with 24 samples.

Results

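Ces1b, Ces1c, Ces1d, Ces1e, Ces1f, Ces1g, Ces3a and Ces3b are 8 of the 24339 genes with a usable level in mouse liver, and they form the Ces1 and Ces3 branches of the carboxylesterase family. They were chosen by symbol: every deposited table has exactly 1 entry with each of these names, so no values had to be summed. All 8 had a valid estimate in 24 of 24 libraries and passed the filter for testing (at least 1 FPKM in at least 3 libraries). They did not pass through 1 high group alone, since 7 of them reached 1 FPKM in 24 libraries and Ces3b did so in 23. FPKM, the deposited unit, is a count of fragments scaled for gene length and library depth.

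The libraries are poly(A) RNA from whole liver of C57BL/6 mice, sequenced on an Illumina HiSeq at postnatal day 5 or day 60, with 3 libraries in each of 8 groups. Wild-type mice received corn oil or TCPOBOP, an agonist of the mouse constitutive androstane receptor (CAR, gene Nr1i3), and hCAR-TG mice, which carry human CAR as a knock-in, received corn oil or CITCO, an agonist of the human receptor. Receptor and ligand always change together in this design, so a difference between the TCPOBOP and CITCO responses cannot be told apart from a difference between the strains, the ligands or their doses; dose, sex, time after dosing and the promoter that drives the human receptor are not given in the sources used here. Nothing in the labels says that the 3 libraries of a group come from separate animals, so each p-value measures the spread between libraries, which may be technical.

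Carboxylesterases are serine hydrolases that cut ester, amide and thioester bonds in drugs, pesticides and lipids. Hepatocytes make large amounts of them and route them into the lumen of the endoplasmic reticulum, where a short signal at the end of the protein, beginning with histidine and ending with glutamate and leucine, is recognised by the KDEL receptors and keeps the enzyme in the cell. Enzymes without this signal leave with the secretory flow, and in rodents 1 of them, Ces1c, is the main carboxylesterase of blood plasma. Ces1d, also known as triacylglycerol hydrolase, mobilises stored hepatic fat for lipoprotein assembly, Ces1g also acts on hepatic lipid, and Ces1e is egasyn, the partner that holds part of β-glucuronidase in the endoplasmic reticulum. CAR is a nuclear receptor that drives genes for drug metabolism when a ligand such as TCPOBOP or CITCO is present.

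The coding ends are shown because they separate the members by the retention signal. Each line gives the last 30 coding bases of the GENCODE M21 transcript (build GRCm38), 5′ to 3′, with the last 4 codons before the stop in capitals.
Ces1b: gaccctactgagcacAGAGAACACAAAtga
Ces1c: gaccctactgaacacACAGAACACAAAtga
Ces1d: ccatcccacagggaaCATGTTGAGCTCtga
Ces1e: caactgccgacagaaCACACTGAGCTGtga
Ces1f: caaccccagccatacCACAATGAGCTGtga
Ces1g: tcatcccatagggaaCATGTTGAACTGtga
Ces3a: agaagcaggaaagttCCAGAGGAGCTCtga
Ces3b: agaagcaggaaagttCCAGAGGAGCTCtga
In Ces1d, Ces1e, Ces1f and Ces1g the capitals hold the retrieval codons, a histidine codon, any codon, a glutamate codon and a leucine codon. Ces1b and Ces1c end on the same last 3 codons as each other and have no retrieval codons. Ces3a and Ces3b end on the same 30 bases and also lack the histidine codon, while keeping the glutamate and leucine codons.

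The members lie in 2 clusters on chromosome 8 of the mm10 build, by the gene bounds in the deposited tables. On the minus strand follow Ces1b (93056727 to 93080017), Ces1c (93099016 to 93131283), Ces1d (93166072 to 93197804), Ces1e (93201218 to 93229619), Ces1f (93256236 to 93279736) and Ces1g (93302369 to 93337209). Ces3a (105048599 to 105058414) and Ces3b (105083755 to 105093591) lie on the plus strand. Coding identity was 88.8% between Ces1b and Ces1c, 86.8% between Ces3a and Ces3b, 81.6% between Ces1d and Ces1g, and 51.9 to 56.8% between any Ces1 member and any Ces3 member. Of all 50-base stretches in the transcripts, 30.9% in Ces3a and 30.7% in Ces3b were identical in the other of the pair, and 17.0% in Ces1c and 11.6% in Ces1b occurred in another gene's transcript. For the remaining members this share was 1.28 to 3.21%. How reads from such stretches were shared out is not given in the sources used here, so the split between Ces3a and Ces3b, and between Ces1b and Ces1c, is uncertain.

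FPKM over all genes summed to between 446595 and 502458 in a library, and the relative sequencing depth, read from the widths of the deposited intervals, ran from 0.866 to 1.104. The deposited intervals for the members had half-widths between 0.459% of the level (Ces1c) and 23.4% (Ces3b in its lowest library). Cyp2b10, the standard CAR target, rose in all 4 ligand comparisons (log2 changes 8.35, 7.59, 6.98 and 2.44 for TCPOBOP at day 5 and 60 and CITCO at day 5 and 60). With corn oil it stood at 4.26 ± 1.18 and 12.9 ± 4.16 FPKM in wild-type livers at day 5 and 60 (mean ± SD). In hCAR-TG corn oil livers it stood at 2.81 ± 2.13 and 225 ± 16.5 FPKM. The change of 2.44 was measured from that higher corn oil level, whose part in it was not tested. The liver label matched its markers, with 7 of 8 hepatocyte markers measured and their summed level at 26865 FPKM or more everywhere. That sum differed between groups: it spanned 99610 to 106384 FPKM in wild-type day 5 corn oil and 72314 to 77038 with TCPOBOP, 44764 to 54619 and 26865 to 28963 at day 60, 88281 to 97044 and 80266 to 83109 for hCAR-TG corn oil and CITCO at day 5, and 50089 to 57688 and 42846 to 48242 at day 60. In bulk liver, fewer cells of a type and less RNA per cell cannot be told apart, and the part of the hepatocyte markers in the members' changes was not tested. In 3 day 5 libraries (wild-type corn oil replicate 2, wild-type TCPOBOP replicate 2 and hCAR-TG CITCO replicate 1) the 7 pancreatic acinar markers summed to 213, 301 and 277 FPKM, against at most 32.2 FPKM in any other library. Counts of members that changed without those 3 libraries are given beside the results they touch. In hCAR-TG day 60 corn oil replicate 1 the 7 adipocyte markers summed to 74.3 FPKM, against 12.6 and 13.7 FPKM in replicates 2 and 3. Adipoq (4.83 FPKM), Cfd (28.8 FPKM), Retn (4.83 FPKM) and Plin1 (1.30 FPKM) were highest in that library of all 24. Leaving it out is among the single-library alternatives below.

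Ces1c, the secreted plasma enzyme, had the highest mean level of the members in 8 of 8 groups, and the make-up of the family differed with age. In day 5 corn oil livers Ces1c supplied 79.1% of the summed member FPKM in wild-type and 73.4% in hCAR-TG mice, Ces1d supplied 13.5% and 15.4%, and Ces3a supplied 1.80% and 4.27%. In day 60 corn oil livers Ces3a supplied 31.3% and 27.3%, next to 38.9% and 39.6% for Ces1c. The summed level was 1642 ± 63.3 FPKM at day 5 and 3339 ± 255 FPKM at day 60 in wild-type corn oil livers (mean ± SD, n = 3), and 1532 ± 50.2 and 3173 ± 69.9 FPKM in hCAR-TG corn oil livers. No test was run on the sum. These sums were 0.348, 0.734, 0.321 and 0.700% of all FPKM in their libraries.

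**Figure D1:**
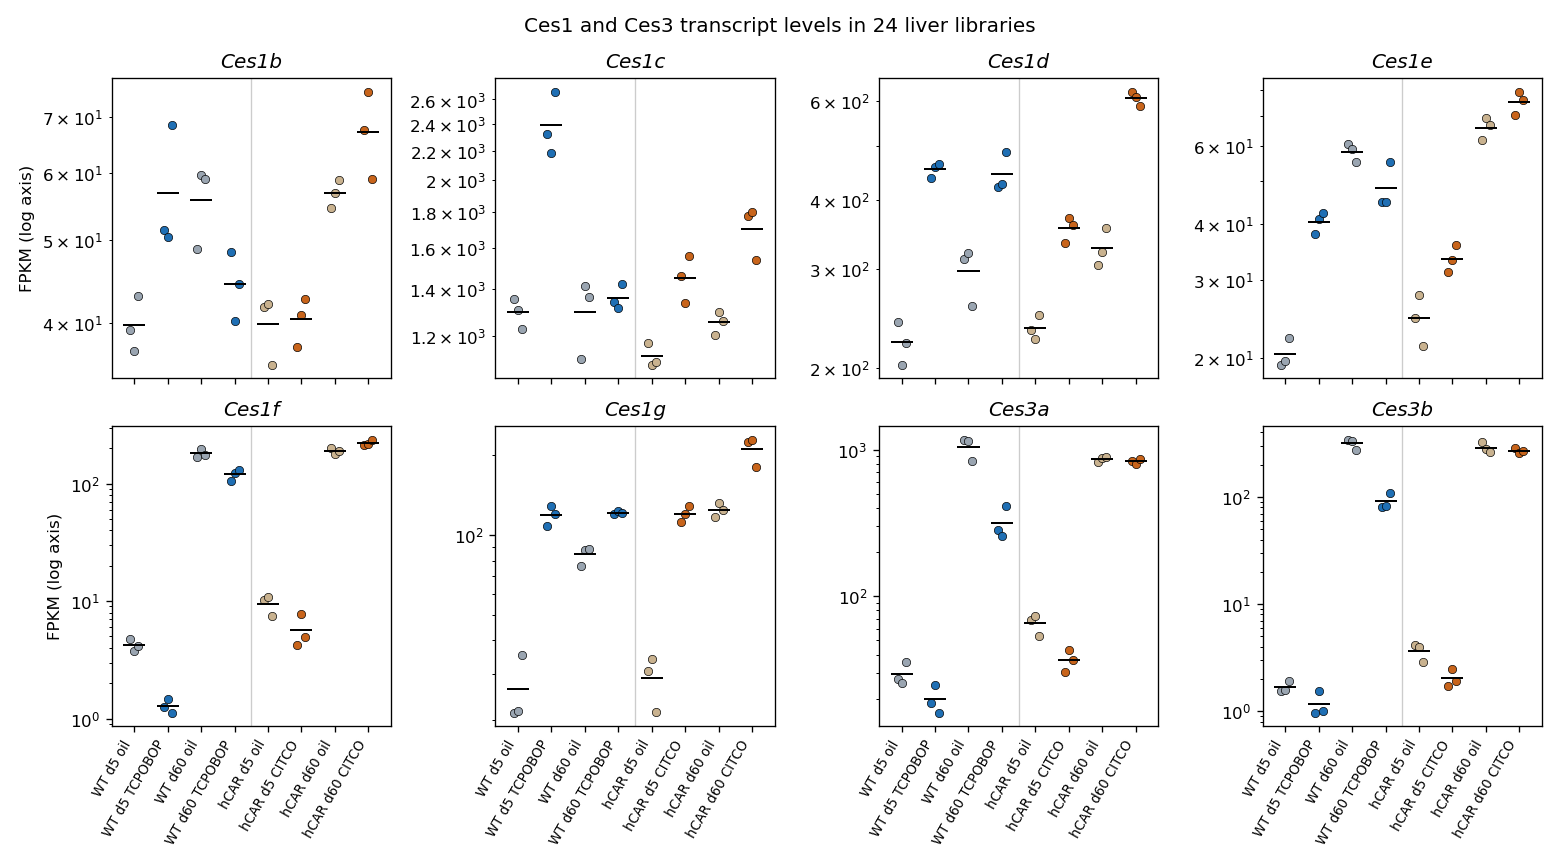
FPKM of each of the 8 members (log axis, 1 panel per gene) in the 8 groups; points are the 3 libraries of a group, bars the group mean, WT and hCAR the wild-type and hCAR-TG mice, d5 and d60 the postnatal day, and oil is corn oil. Ces1f, Ces3a and Ces3b separate by age in every pair of groups, whereas Ces1c shows its highest values in wild-type day 5 livers given TCPOBOP.

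Between day 5 and day 60, 7 of 8 members rose in wild-type corn oil livers, where 70.2% of all tested genes were called and 25.2% rose (44.9% fell). In hCAR-TG corn oil livers 7 of 8 also rose, where 71.6% were called and 24.3% rose (47.3% fell). The ages did not overlap in 7 members in wild-type and 8 in hCAR-TG mice, where 74.3% and 70.5% of all tested genes did not. A call is an adjusted p under 0.05 in limma, a linear model fitted to log2(FPKM + 1) of all 12282 tested genes with Benjamini-Hochberg adjustment. The fold changes given for age are ratios of mean FPKM, and the log2 changes, which use the added 1 FPKM, understate the change of a low gene. Summed erythroid markers were 1864 to 2716 FPKM at day 5 and 657 to 819.5 FPKM at day 60 in wild-type corn oil livers. Kupffer cell markers were 313 to 341 and 141 to 162 FPKM. In hCAR-TG mice these were 4226 to 5215 and 491 to 651 FPKM, and 306 to 656 and 98.2 to 142 FPKM. Their part in the members' changes was not tested. The read file suffix also separates the ages, and it could not be fitted for hCAR-TG mice.

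Ces3b, a gene barely detected in the neonate, had the widest range. It measured 1.55, 1.57 and 1.92 FPKM in the 3 wild-type day 5 corn oil libraries and 339.7, 333 and 277 FPKM at day 60. In hCAR-TG mice the same values were 4.12, 3.99 and 2.85 FPKM at day 5 and 324, 278 and 262 FPKM at day 60. The day 60 libraries were all far above the day 5 libraries, by 189-fold in wild-type mice (log2 change 6.89 ± 0.14 SE, limma adjusted p = 1.81e-19) and 78.8-fold in hCAR-TG mice (5.96 ± 0.14, adjusted p = 1.67e-18).

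Ces3a, its neighbour, was 27.5, 25.6 and 35.4 FPKM at day 5 and 1163, 1143 and 838 FPKM at day 60 in wild-type corn oil livers. In hCAR-TG mice it was 69.3, 73.3 and 53.9 FPKM at day 5 and 825, 883 and 887 FPKM at day 60. The ages did not overlap in either strain, and the rise was 35.5-fold and 13.2-fold (log2 changes 5.10 ± 0.18 and 3.71 ± 0.18, limma adjusted p = 3.53e-15 and 4.07e-13).

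Among the members with retrieval codons, Ces1f changed most with age, from 4.79, 3.79 and 4.11 to 169, 199 and 174 FPKM in wild-type mice. In hCAR-TG mice it went from 10.2, 10.8 and 7.45 to 199, 179 and 190.3 FPKM. These are rises of 42.7-fold and 20.0-fold, with no overlap between the ages (log2 changes 5.12 ± 0.15 and 4.20 ± 0.15, limma adjusted p = 1.03e-16 and 1.78e-15). The rises of Ces1g, the hepatic lipid hydrolase, and Ces1e, egasyn, were smaller. Ces1g rose 3.23-fold and 4.31-fold in wild-type and hCAR-TG mice (log2 changes 1.69 ± 0.16 and 2.09 ± 0.16), and Ces1e rose 2.84-fold and 2.68-fold (1.46 ± 0.09 and 1.39 ± 0.09). Ces1d, the triacylglycerol hydrolase, rose 1.34-fold and 1.39-fold (0.42 ± 0.08 and 0.47 ± 0.08).

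Of the members without retrieval codons, Ces1b rose 1.40-fold and 1.43-fold (log2 changes 0.48 ± 0.11 and 0.51 ± 0.11). The wild-type call was lost with the read file suffix as a factor (0.47, adjusted p = 0.163). Ces1c, the plasma enzyme, was already at 1357, 1309.7 and 1227 FPKM in wild-type day 5 corn oil livers and measured 1116, 1412 and 1364 FPKM at day 60. The groups overlapped, and the log2 change was -0.01 ± 0.09 (limma adjusted p = 0.948, 95% interval -0.19 to 0.18). In hCAR-TG mice Ces1c was 1175, 1094 and 1103 FPKM at day 5 and 1206, 1301 and 1261 FPKM at day 60, a log2 change of 0.16 ± 0.09 (adjusted p = 0.116), which was called only when the libraries were rescaled (0.29, adjusted p = 0.0109) or weighted (0.20, adjusted p = 0.011). Rescaling moved the median change of all genes in this comparison by 0.107 on the log2 scale.

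**Figure D2:**
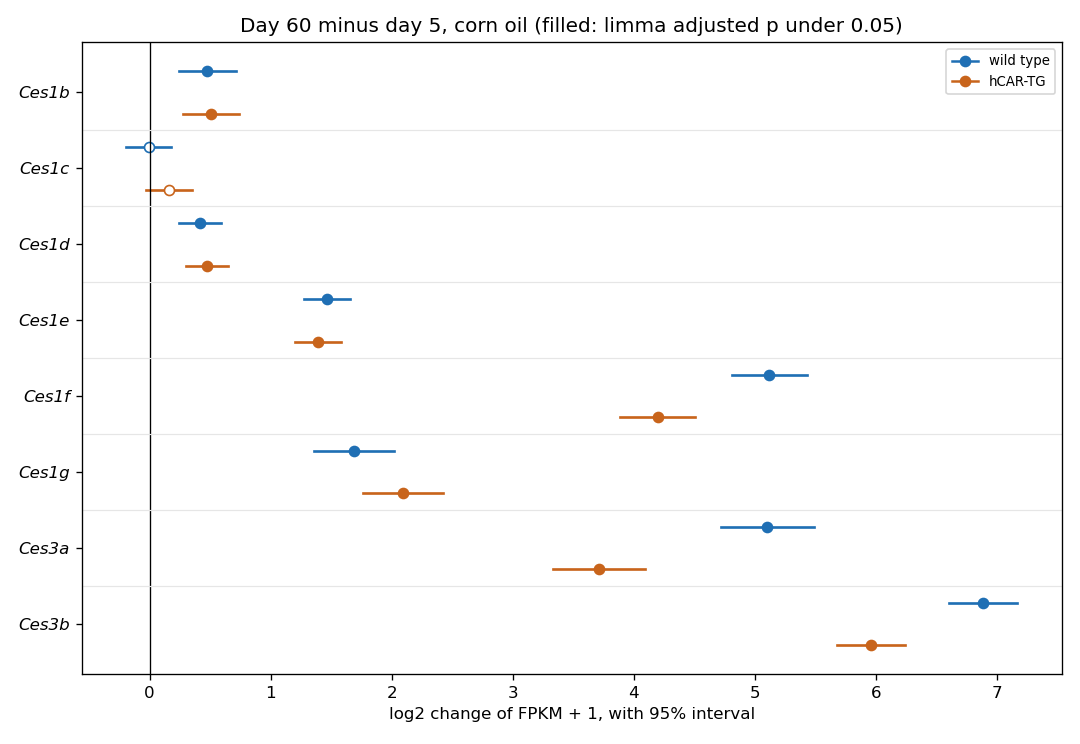
Change from day 5 to day 60 in corn oil livers for each member, as log2 change of FPKM + 1 with its 95% interval, in wild-type (blue) and hCAR-TG (orange) mice; filled points passed limma's adjusted p of 0.05. Ces3b, Ces1f and Ces3a lie farthest to the right in both strains, and the intervals of Ces1c reach 0.

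The age changes of Ces1f, Ces3a and Ces3b differed between the strains. In the test of that difference they were called lower in hCAR-TG than in wild-type mice, 3 of 8 members against 6.94% of all tested genes (4.84% lower and 2.10% higher), with differences of -0.92 ± 0.21 for Ces1f, -1.39 ± 0.26 for Ces3a and -0.93 ± 0.19 for Ces3b (limma adjusted p = 0.0103, 0.00212 and 0.00479). At day 5 the corn oil livers of hCAR-TG mice held more of these transcripts. There 3 of 8 members were called higher than in wild-type mice and none lower by limma, with 1 member lower at an unadjusted p under 0.05, against 10.6% called of all tested genes (8.29% higher and 2.27% lower). Ces3a means were 29.5 ± 5.24 FPKM in wild-type and 65.5 ± 10.2 FPKM in hCAR-TG livers (log2 difference 1.13 ± 0.18, adjusted p = 0.000334). Ces1f means were 4.23 ± 0.508 and 9.50 ± 1.80 FPKM (0.995 ± 0.15, adjusted p = 0.000133), and Ces3b means were 1.68 ± 0.210 and 3.66 ± 0.699 FPKM (0.79 ± 0.14, adjusted p = 0.000537). Erythroid markers differed in the same comparison, with a summed level of 1864 to 2716 FPKM in wild-type and 4226 to 5215 FPKM in hCAR-TG day 5 corn oil livers, and their part in these differences was not tested. With the libraries weighted by quality, 6 members were called in place of 3. The added calls were Ces1c as lower (-0.25, limma adjusted p = 0.0118) and Ces1e and Ces1g as higher. Over all tested genes, 4571 were called with these weights in place of 1297, out of 12282. Ces1e was also called without hCAR-TG corn oil replicate 3 (0.34, adjusted p = 0.0154). The file suffix in the read names separates these day 5 groups, and what it stands for is not given in the sources used here, so it cannot be told apart from strain.

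At day 60 no member was called different between the corn oil livers of the strains by limma, against 4.90% of all tested genes (3.05% higher and 1.85% lower). Ces1g came nearest, at 76.7, 87.9 and 88.9 FPKM in wild-type and 117, 132 and 124 FPKM in hCAR-TG livers. The hCAR-TG values were all higher (log2 difference 0.55 ± 0.16, adjusted p = 0.0501), and it was called under 5 of the alternative settings, with adjusted p from 0.00135 to 0.0497. At an unadjusted p under 0.05 it was the only member of the 8. The 95% intervals of the log2 difference were -0.64 to 0.12 for Ces3a and -0.42 to 0.15 for Ces3b. Of 4 listed CAR target genes, 3 were called higher in the hCAR-TG corn oil livers at day 60 and 0 lower. The age, strain and ligand comparisons share corn oil libraries, so their values are not independent of each other.

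TCPOBOP in wild-type day 5 livers raised 5 of 8 members and lowered 2, against 35.9% of all tested genes called (24.6% higher and 11.3% lower). The rises were in Ces1g, Ces1d, Ces1e, Ces1c and Ces1b, and the falls in Ces1f and Ces3a. The file suffix in the read names also separates the corn oil and TCPOBOP libraries of day 5, so it cannot be told apart from this response. It could not be fitted as a factor here or in the differences that use this response. The groups did not overlap for any of the 8 members, where 47.6% of all tested genes showed no overlap. The median log2 change was 0.68 for the 8 members and 0.04 for all tested genes. When libraries were rescaled by the median of ratios, 52.0% of all calls in this comparison were higher, in place of 68.6%.

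Ces1g had the highest fold of the rises. It measured 21.4, 21.7 and 35.4 FPKM with corn oil and 108, 129 and 119.9 FPKM with TCPOBOP. Every treated library stood above every control library by a wide gap. The ratio of means was 4.55 and the log2 change 2.18 ± 0.16 (limma adjusted p = 1.12e-09). Ces1d, the triacylglycerol hydrolase, went from 242, 203 and 222 to 438, 458 and 464 FPKM, with closely grouped treated values and a log2 change of 1.03 ± 0.08 (adjusted p = 4.94e-09). Ces1e went from 19.3, 19.7 and 22.2 to 38.0, 41.0 and 42.4 FPKM (log2 change 0.95 ± 0.09, adjusted p = 5.39e-08). All 3 of these rising genes end on the retrieval codons printed above, while Ces1b and Ces1c, which also rose, do not.

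A rise was not seen for Ces1f, the fourth gene with retrieval codons. Its level was 4.79, 3.79 and 4.11 FPKM with corn oil and 1.27, 1.48 and 1.13 FPKM with TCPOBOP, so that every treated value lay below every control value (log2 change -1.19 ± 0.15, adjusted p = 2.49e-06). The control mean was 3.28 times the treated mean. Ces3a was 27.5, 25.6 and 35.4 with corn oil and 18.7, 24.9 and 16.1 FPKM with TCPOBOP (log2 change -0.55 ± 0.18, adjusted p = 0.0231). That call was lost when corn oil replicate 3, TCPOBOP replicate 1 or TCPOBOP replicate 3 was left out (adjusted p = 0.111, 0.0655 and 0.119). Ces3b was 1.55, 1.57 and 1.92 with corn oil and 0.970, 1.53 and 1.01 FPKM with TCPOBOP. It was lower in each treated library but not called (log2 change -0.31 ± 0.14, limma adjusted p = 0.0804). A call was made with a pseudocount of 0.1 FPKM (adjusted p = 0.0268), after rescaling (adjusted p = 0.0485) and with array weights (adjusted p = 0.00457). Leaving out TCPOBOP replicate 2 (adjusted p = 0.0295) or the 3 libraries with pancreatic transcripts (adjusted p = 0.0465) also gave a call. Between corn oil and TCPOBOP, summed stellate cell markers were 135 to 139.9 against 74.2 to 95.5 FPKM and Kupffer cell markers 313 to 341 against 390.3 to 513 FPKM, and their part in the members' changes was not tested.

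Among the genes without retrieval codons, Ces1c went from 1357, 1309.7 and 1227 to 2321, 2186 and 2664 FPKM, the highest values of any member in any group (log2 change 0.88 ± 0.09, adjusted p = 1.27e-07). It made up 77.5% of the summed member level, which was 1642 ± 63.3 FPKM with corn oil and 3082 ± 259 FPKM with TCPOBOP. Ces1b, the closest relative of Ces1c, went from 39.3, 37.0 and 43.0 to 51.5, 50.5 and 68.4 FPKM (log2 change 0.49 ± 0.11, adjusted p = 0.00156), with TCPOBOP replicate 3 well above the other 2 treated libraries.

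At day 60 more members fell than rose with TCPOBOP. In all, 2 of 8 members rose and 5 fell in wild-type livers, against 47.2% of all tested genes called (31.4% higher and 15.8% lower). The groups did not overlap for 6 members, where 60.0% of all tested genes did not. The median log2 change of the members was -0.30, beside 0.06 for all tested genes. Rescaling changed the share of higher calls over all genes from 66.5 to 53.0%.

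The strongest changes were in the Ces3 pair. Ces3a fell from 1163, 1143 and 838 FPKM with corn oil to 283, 259 and 412 FPKM with TCPOBOP (log2 change -1.73 ± 0.18, limma adjusted p = 1.29e-07). Ces3b fell from 339.7, 333 and 277 to 81.4, 82.4 and 110.0 FPKM (-1.79 ± 0.14, adjusted p = 6.7e-10). In both genes the 3 treated libraries lay below the 3 controls, and the control means were 3.30 and 3.47 times the treated means. Summed hepatocyte markers were also lower in these treated livers, as given above, as were those of erythroid cells (657 to 819.5 FPKM with corn oil and 303 to 492 FPKM with TCPOBOP), stellate cells (77.2 to 93.0 and 55.4 to 57.8 FPKM) and sinusoidal endothelial cells (75.9 to 87.4 and 66.4 to 69.9 FPKM), while adipocyte markers were higher (8.85 to 9.52 and 18.5 to 21.9 FPKM). Their part in the members' changes was not tested.

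Ces1f fell from 169, 199 and 174 to 105, 123 and 131 FPKM (log2 change -0.59 ± 0.15, adjusted p = 0.00242), without overlap. Ces1b was 48.8, 59.6 and 59.1 with corn oil and 48.5, 40.2 and 44.5 FPKM with TCPOBOP (-0.32 ± 0.11, adjusted p = 0.0216), and Ces1e was 60.3, 59.0 and 55.0 with corn oil and 44.7, 44.9 and 55.0 FPKM with TCPOBOP (-0.27 ± 0.09, adjusted p = 0.0195). The treated and control ranges came close for Ces1b and overlapped for Ces1e. Both calls were lost when single libraries were left out: Ces1b without corn oil replicate 2 (adjusted p = 0.0891), corn oil replicate 3 (0.0828) or TCPOBOP replicate 2 (0.109), and Ces1e without corn oil replicate 1 (0.0638), corn oil replicate 2 (0.0547), TCPOBOP replicate 1 (0.0949) or TCPOBOP replicate 2 (0.0912).

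Ces1d and Ces1g were the 2 members that rose in adult wild-type livers. Ces1d went from 313, 321 and 258 to 422, 427 and 486 FPKM (log2 change 0.58 ± 0.08, adjusted p = 6.84e-06), and Ces1g from 76.7, 87.9 and 88.9 to 119.8, 123 and 121 FPKM (0.52 ± 0.16, adjusted p = 0.0102). The groups did not overlap in either gene. Ces1c was 1116, 1412 and 1364 with corn oil and 1344, 1317 and 1424 FPKM with TCPOBOP, with overlapping groups and a log2 change of 0.08 ± 0.09 (adjusted p = 0.526) whose 95% interval was -0.11 to 0.26. Its sign turned after rescaling (-0.02). The summed level of the members was 3339 ± 255 FPKM with corn oil and 2549 ± 204 FPKM with TCPOBOP, and Ces3a held 31.3 and 12.4% of it.

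**Figure D3:**
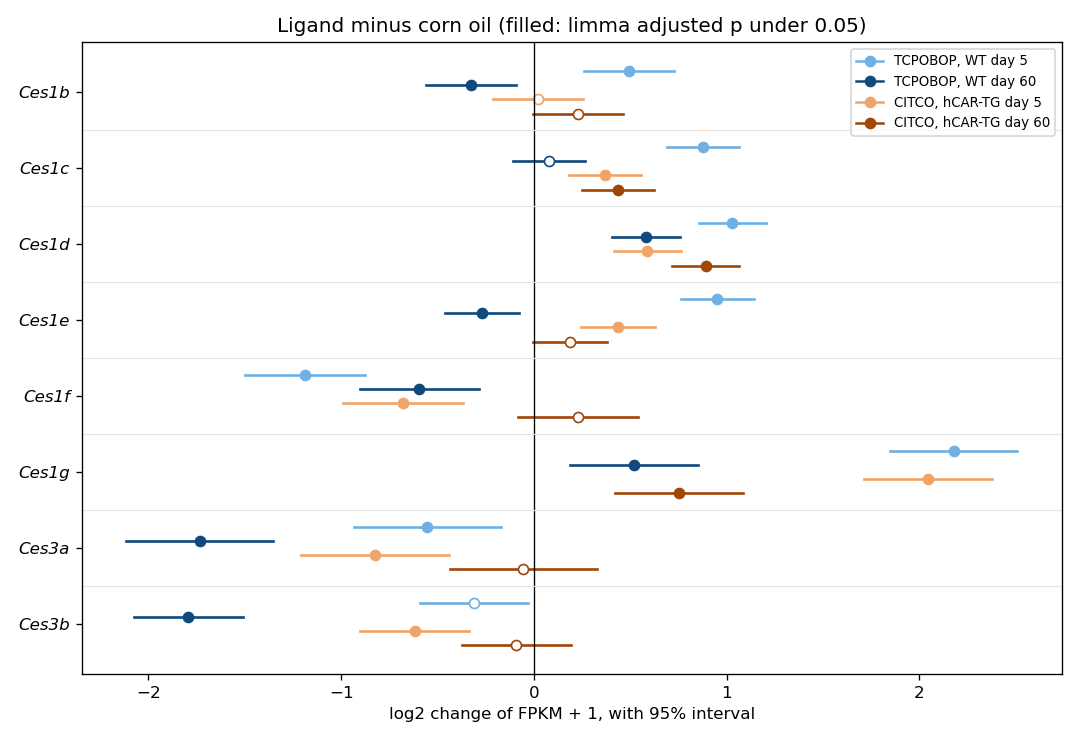
Log2 change of FPKM + 1 with its 95% interval for each member under TCPOBOP in wild-type mice (light and dark blue, day 5 and day 60) and CITCO in hCAR-TG mice (light and dark orange, day 5 and day 60), each against corn oil of the same strain and age. Filled points passed limma's adjusted p of 0.05; Ces1d and Ces1g are filled and right of 0 in all 4 comparisons, while Ces3a and Ces3b lie farthest left under TCPOBOP at day 60.

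CITCO in hCAR-TG day 5 livers raised 4 of 8 members and lowered 3, against 17.1% of all tested genes called (8.27% higher and 8.82% lower). The groups did not overlap for 6 members, where 35.0% of all tested genes did not. Ces1g went from 30.8, 34.1 and 21.6 to 112, 120.3 and 128 FPKM, with every treated library far above every control (log2 change 2.05 ± 0.16, limma adjusted p = 2.24e-08). Ces1d went from 234, 225 and 249 to 335, 371 and 360.3 FPKM (0.59 ± 0.08, adjusted p = 6.96e-05) and Ces1e from 24.6, 27.7 and 21.3 to 31.1, 33.2 and 35.9 FPKM (0.44 ± 0.09, adjusted p = 0.00281). Ces1c, the plasma enzyme, went from 1175, 1094 and 1103 to 1461, 1338 and 1561 FPKM (0.37 ± 0.09, adjusted p = 0.00804). All 3 treated libraries were above all 3 controls in each of these 4 genes.

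The falls were again in Ces1f and the Ces3 pair. In the same comparison the summed markers of other cell types also differed without overlap, between corn oil and CITCO, from 4226 to 5215 against 2842 to 3453 FPKM for erythroid cells, from 110.04 to 126 against 86.4 to 90.7 FPKM for sinusoidal endothelial cells, and from 50.5 to 67.6 against 91.0 to 96.3 FPKM for adipocytes. Their part in the members' changes was not tested. Ces3a was 69.3, 73.3 and 53.9 FPKM with corn oil and 30.2, 42.8 and 36.8 FPKM with CITCO (log2 change -0.82 ± 0.18, adjusted p = 0.00438). Ces3b was 4.12, 3.99 and 2.85 with corn oil and 1.71, 2.47 and 1.89 FPKM with CITCO (-0.62 ± 0.14, adjusted p = 0.00382), and Ces1f was 10.2, 10.8 and 7.45 with corn oil and 4.22, 7.83 and 4.94 FPKM with CITCO (-0.68 ± 0.15, adjusted p = 0.00402), with overlapping groups in Ces1f. Ces1b was 41.7, 42.1 and 35.7 with corn oil and 37.5, 40.9 and 42.7 FPKM with CITCO and was not called (0.02 ± 0.11, 95% interval -0.21 to 0.25). With the read file suffix as a factor the 3 falls were smaller, at -0.38 for Ces1f, -0.56 for Ces3a and -0.36 for Ces3b. That fit sets the CITCO libraries against corn oil replicate 3 alone, the only corn oil library here with their suffix. It therefore cannot tell the suffix apart from that library. With only these 6 libraries in the model 3 members were called (lost were Ces1c, Ces1e, Ces1f and Ces3b, adjusted p from 0.0585 to 0.129). Over all tested genes, 624 were called with only these 6 libraries, in place of 2099. Without CITCO replicate 3 the call of Ces1c was lost (adjusted p = 0.0525).

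CITCO in hCAR-TG day 60 livers raised 3 of 8 members and lowered none by limma, with none lower at an unadjusted p under 0.05, against 8.37% of all tested genes called (4.40% higher and 3.97% lower). The groups did not overlap for 6 members, where 31.9% of all tested genes did not. Ces1d went from 306, 322 and 356 to 624, 612 and 589 FPKM, its highest level in any group (log2 change 0.89 ± 0.08, limma adjusted p = 3.67e-07). Ces1g went from 117, 132 and 124 to 224, 228 and 180.5 FPKM (0.75 ± 0.16, adjusted p = 0.00436) and Ces1c from 1206, 1301 and 1261 to 1777, 1803 and 1539 FPKM (0.44 ± 0.09, adjusted p = 0.00326). In these 3 genes the groups were fully apart, and the same 3 were called with each of the 6 libraries left out in turn.

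No change was called in the adult Ces3 genes under CITCO. Ces3a was 825, 883 and 887 FPKM with corn oil and 833, 801 and 865 FPKM with CITCO (log2 change -0.05 ± 0.18, adjusted p = 0.931, 95% interval -0.44 to 0.33), and Ces3b was 324, 278 and 262 with corn oil and 285, 256 and 267 FPKM with CITCO (-0.09 ± 0.14, adjusted p = 0.791, interval -0.37 to 0.19). Ces1f was 199, 179 and 190.3 with corn oil and 214, 218 and 235 FPKM with CITCO, higher in each treated library but not called (0.23 ± 0.15, adjusted p = 0.434), although it was called with only the compared groups in the model (adjusted p = 0.0435). Ces1b (0.23 ± 0.11, adjusted p = 0.247) and Ces1e (0.19 ± 0.09, adjusted p = 0.249) were also above corn oil in every treated library and not called. The summed level was 3173 ± 69.9 FPKM with corn oil and 3992 ± 158 FPKM with CITCO, the highest mean of the 8 groups.

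Tests of the differences between responses showed which of these contrasts exceeded the error. For TCPOBOP, the day 60 response was lower than the day 5 response in 7 members and higher in 1, against 23.4% of all tested genes called (9.76% lower and 13.7% higher). The differences were -1.66 ± 0.22 for Ces1g, -1.48 ± 0.19 for Ces3b, -1.22 ± 0.13 for Ces1e, -1.18 ± 0.26 for Ces3a, -0.82 ± 0.16 for Ces1b, -0.80 ± 0.13 for Ces1c and -0.45 ± 0.12 for Ces1d on the log2 scale (limma adjusted p from 4.89e-07 to 0.00853). For Ces1f the difference was 0.60 ± 0.21 (adjusted p = 0.0457), and it was lost when any of 8 single libraries was left out, with adjusted p from 0.064 to 0.112, after rescaling (adjusted p = 0.0737) and with no filter (adjusted p = 0.0708). The difference of Ces1d was not called without the 3 libraries with pancreatic transcripts (-0.38, adjusted p = 0.0591).

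For CITCO, the response differed between the ages in 2 members, against 9.99% of all tested genes called (5.37% higher and 4.62% lower). The response of Ces1g was lower at day 60, with a difference of -1.29 ± 0.22 (adjusted p = 0.00115) and that of Ces1f was higher by 0.91 ± 0.21 (adjusted p = 0.00945). With the read file suffix as a factor the differences were 0.56 for Ces1f and -0.53 for Ces1e. In that fit the day 5 response rests on corn oil replicate 3 and the day 60 response on CITCO replicate 1. These are the only libraries of their groups with a suffix found in the group they are compared with. Ces3a (0.77 ± 0.26, adjusted p = 0.0653) and Ces3b (0.53 ± 0.19, adjusted p = 0.09) were not called; both were called without hCAR-TG day 5 corn oil replicate 3 (0.90, adjusted p = 0.0432 and 0.66, adjusted p = 0.0274), which made 4 members called in place of 2. Both were also called with array weights (0.81, adjusted p = 0.00733 and 0.63, adjusted p = 0.00277), and Ces3a with only the compared groups (adjusted p = 0.0257). Over all tested genes, 1270 were called without that replicate and 3279 with array weights, in place of 1227. In hCAR-TG day 5 corn oil replicate 3 the SD of the deviations from the group mean over all tested genes was 0.257 on the log2 scale, the largest of the 24. The intestinal markers Lypd8 (16.4 FPKM), Reg3b (9.89 FPKM), Vil1 (0.943 FPKM) and Cdx2 (0.189 FPKM) were also highest in that library. Fabp2 and Sis, the other listed ones, were highest elsewhere. The part of these transcripts in the calls that change without that library was not tested.

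Set side by side, the CITCO response was smaller than the TCPOBOP response at day 5 in 4 members and larger in none by limma (1 at an unadjusted p under 0.05), against 33.7% of all tested genes called (22.2% lower and 11.5% higher). The difference was -0.52 ± 0.13 for Ces1e, -0.51 ± 0.13 for Ces1c, -0.47 ± 0.16 for Ces1b and -0.44 ± 0.12 for Ces1d (limma adjusted p = 0.00486, 0.00466, 0.0272 and 0.00784). For Ces1g, which rose under both ligands, it was -0.13 ± 0.22 (adjusted p = 0.674, 95% interval -0.60 to 0.34), and it was called with array weights (-0.49, adjusted p = 0.00207). Without the 3 libraries with pancreatic transcripts 2 members were called in place of 4, since Ces1b (adjusted p = 0.0927), Ces1d (adjusted p = 0.102) and Ces1e (adjusted p = 0.0615) were lost and Ces1f was called as higher (0.79, adjusted p = 0.0206). Over all tested genes, 2493 were called without these 3 libraries, in place of 4142. Ces1f, at 1.29 ± 0.180 to 9.50 ± 1.80 FPKM in these groups, had a difference of 0.51 ± 0.21 (adjusted p = 0.0667) and was also called as higher with a pseudocount of 0.1 FPKM (0.87, adjusted p = 0.0104), with array weights (0.53, adjusted p = 0.034) and without hCAR-TG corn oil replicate 2 (0.61, adjusted p = 0.0377) or CITCO replicate 1 (0.67, adjusted p = 0.0176). That none was larger therefore depended on the setting. Leaving out single libraries ended the call of Ces1b in 5 cases (adjusted p from 0.051 to 0.0854), as did rescaling (adjusted p = 0.0524) and fitting only the compared groups (adjusted p = 0.0531). Over all genes 34.1% of the calls were higher, and 45.3% after rescaling.

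At day 60 the CITCO response was above the TCPOBOP response in 6 members, against 33.8% of all tested genes called (9.77% higher and 24.1% lower). The differences were 1.70 ± 0.19 for Ces3b and 1.68 ± 0.26 for Ces3a (limma adjusted p = 7.23e-07 and 4.11e-05), the 2 genes that fell under TCPOBOP and were not called under CITCO. They were 0.82 ± 0.21 for Ces1f, 0.55 ± 0.16 for Ces1b, 0.46 ± 0.13 for Ces1e and 0.36 ± 0.13 for Ces1c (adjusted p = 0.00459, 0.0096, 0.00907 and 0.0317). The call of Ces1c was lost when any of 8 single libraries was left out, with adjusted p from 0.05 to 0.0969. Ces1d (0.31 ± 0.12, adjusted p = 0.0508) and Ces1g (0.23 ± 0.22, adjusted p = 0.472) rose under both ligands, and their difference was not called; Ces1d was called under several settings (adjusted p from 0.0082 to 0.0495). Over all genes 28.9% of these calls were higher, and 43.3% after rescaling. Cyp2b10 was already higher in hCAR-TG than in wild-type corn oil livers at day 60, as given above. The part of that unequal starting level in these differences was not tested.

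Asking also for a log2 change of 1 or more left 3 called members with TCPOBOP at day 5 against 3.18% of all tested genes, 2 at day 60 against 6.79%, 1 with CITCO at day 5 against 0.944% and none at day 60 against 0.773% by limma. The members that remained were Ces1g, Ces1f and Ces1d, then Ces3a and Ces3b, then Ces1g. Of the differences between responses, 4 and 1 remained for TCPOBOP and CITCO between ages (against 4.35% and 1.34%), and none and 2 for CITCO minus TCPOBOP at day 5 and day 60 (against 3.08% and 5.99%). Of the age changes, 5 members remained in each strain (against 16.2% and 18.4%) and 1 in the difference between strains (against 1.34%), and between the corn oil livers of the strains 1 remained at day 5 and none at day 60 (against 1.06% and 0.456%).

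Ordered by mean level over the 8 groups, Ces3b spanned a 271-fold range, Ces1f 172-fold and Ces3a 52.7-fold, while Ces1b spanned 1.69-fold, Ces1c 2.13-fold, Ces1d 2.74-fold, Ces1e 3.67-fold and Ces1g 8.07-fold. Ces3a and Ces3b had the same order: lowest in wild-type day 5 livers with TCPOBOP, then wild-type day 5 corn oil, hCAR-TG day 5 CITCO, hCAR-TG day 5 corn oil, wild-type day 60 TCPOBOP, hCAR-TG day 60 CITCO, hCAR-TG day 60 corn oil and wild-type day 60 corn oil. In both, the last 3 groups overlapped with their neighbours, as did wild-type day 5 corn oil with hCAR-TG day 5 CITCO. Ces1f had the same order up to the wild-type day 60 TCPOBOP group except that CITCO and corn oil in hCAR-TG day 5 livers overlapped, and it was highest in hCAR-TG day 60 livers with CITCO. Ces1b, Ces1d, Ces1e and Ces1g were also highest in that group, with no overlap with the next group below. For Ces1b the gap was narrow, with 58.99 FPKM the highest corn oil value and 59.07 FPKM the lowest CITCO value. Its CITCO range also overlapped those of wild-type day 5 TCPOBOP (50.5 to 68.4 FPKM) and wild-type day 60 corn oil (48.8 to 59.6 FPKM). Ces1c was highest in wild-type day 5 livers with TCPOBOP, above hCAR-TG day 60 CITCO without overlap, and 6 of its 8 groups formed a chain of overlapping neighbours below that.

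Over the 24 libraries Ces1f, Ces3a and Ces3b were most alike, and Ces1e was about as close to them as to Ces1b and Ces1g. Pearson's r of log2(FPKM + 1) was 0.99 between Ces1f and Ces3a, between Ces1f and Ces3b and between Ces3a and Ces3b, and 0.87 between Ces1d and Ces1g. For Ces1e it was 0.86 with Ces3b, 0.85 with Ces1g, 0.82 with Ces3a, 0.81 with Ces1b and 0.80 with Ces1f. The lowest value of the 28 pairs was -0.32, between Ces1c and Ces1f. These values describe libraries that share groups and ages, and the pair Ces3a and Ces3b also shares sequence. Of the other tested genes, with predicted and Riken genes left out, the one most like Ces3b was Slc22a30 (r = 0.997), Cyp4f14 was most like Ces3a (0.994) and Slco2b1 most like Ces1f (0.990). Hpd, which encodes a tyrosine-breakdown enzyme, was most like Ces1e (0.972), Cyp1a2, a drug-oxidising P450, most like Ces1g (0.948), Agmo most like Ces1c (0.928), Ugt2b35, a glucuronosyltransferase, most like Ces1d (0.902) and Amdhd1 most like Ces1b (0.883).

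Promoters are shown for 3 Ces1 members that rose together under TCPOBOP at day 5. Ces1e also rose and has a promoter window, which is not printed. RefSeq (GRCm38.p6) gave 6 promoter windows for 5 members, Ces1b (2 starts), Ces1c, Ces1e, Ces1g and Ces3b. Each window of 300 bases runs from 250 before to 50 after the gene's start and is written 5′ to 3′ on the gene's strand, with the word TTATGTAA in capitals. The windows are chr8:93079891-93080190 (minus strand) for Ces1b, chr8:93131234-93131533 (minus) for Ces1c and chr8:93337160-93337459 (minus) for Ces1g.
Ces1b: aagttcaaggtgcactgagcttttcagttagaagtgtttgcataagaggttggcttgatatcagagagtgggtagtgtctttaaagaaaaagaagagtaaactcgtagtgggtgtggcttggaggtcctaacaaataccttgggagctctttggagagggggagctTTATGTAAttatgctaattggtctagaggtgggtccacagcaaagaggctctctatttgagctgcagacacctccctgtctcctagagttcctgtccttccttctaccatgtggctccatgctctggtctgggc
Ces1c: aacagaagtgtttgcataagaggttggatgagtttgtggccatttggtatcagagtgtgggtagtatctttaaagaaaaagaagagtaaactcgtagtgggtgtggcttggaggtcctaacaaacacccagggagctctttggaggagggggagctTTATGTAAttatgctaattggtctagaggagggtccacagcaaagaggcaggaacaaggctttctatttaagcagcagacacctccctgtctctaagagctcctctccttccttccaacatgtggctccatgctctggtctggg
Ces1g: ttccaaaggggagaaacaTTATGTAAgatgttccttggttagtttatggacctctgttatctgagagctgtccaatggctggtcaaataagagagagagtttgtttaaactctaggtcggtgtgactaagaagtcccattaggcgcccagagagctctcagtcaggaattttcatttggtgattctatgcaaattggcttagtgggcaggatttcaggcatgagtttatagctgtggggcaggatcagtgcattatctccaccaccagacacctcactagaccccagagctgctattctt
TTATGTAA, searched on both strands, was in 5 of the 6 windows, those of Ces1b, Ces1c, Ces1e and Ces1g, and in 0.938% of all 32851 promoter windows; the 2 windows of Ces1b hold the same site. The word was picked after the member sequences had been read, so its count is a description. It began 84 and 7 bases before the 2 starts of Ces1b (84 for the window shown), and 94 bases before the start in Ces1c, 81 in Ces1e and 232 in Ces1g. The Ces1b and Ces1c windows were 78.0% identical, so their sites are not independent. CAR binds direct repeats of AGGTCA-like words 4 bases apart. Such a repeat, of AGGTCA or AGTTCA in either position, was in 0 of the 6 windows and in 0.0274% of all windows. At so low a share a count of 0 in 6 windows says little about CAR sites. Only exact words inside the 300 bases were searched. AGTTCA alone was in both Ces1b windows and in 14.0% of all windows.

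The other carboxylesterases were measured in 10 of 11 cases and tested in 8. Of all tested genes, 35.9% and 47.2% were called with TCPOBOP at day 5 and 60, and 17.1% and 8.37% with CITCO. They include the Ces2 genes, which prefer substrates with a large alcohol group. TCPOBOP raised 5 and lowered 1 of these 8 at day 5, and raised 6 and lowered 1 at day 60. CITCO raised 1 and lowered none at day 5, and raised 4 and lowered 1 at day 60. Ces2a rose in all 4 comparisons (log2 changes 4.23, 3.60, 1.57 and 1.84), and it reached 2997 ± 259 FPKM in wild-type day 60 livers with TCPOBOP, a group in which the summed 8 members stood at 2549 ± 204 FPKM. The median log2 change of these 8 genes with TCPOBOP at day 60 was 1.14, beside -0.30 for the Ces1 and Ces3 members. Ces1a, the remaining measured Ces1 gene, was low, between 1.04 and 2.45 FPKM over the 24 libraries. It rose with TCPOBOP at day 5, from 1.34, 1.41 and 1.28 to 2.36, 2.02 and 2.45 FPKM without overlap (log2 change 0.48 ± 0.08, adjusted p = 0.000131), and with CITCO at day 60, from 1.05, 1.04 and 1.10 to 1.61, 2.05 and 1.59 FPKM without overlap (0.41 ± 0.08, adjusted p = 0.00357). It was not called with TCPOBOP at day 60 (-0.05) or CITCO at day 5 (0.14). Pearson's r of log2(FPKM + 1) between Ces1a and Ces1c was 0.925 over the 24 libraries. Ces1c was far higher and shares stretches with other genes, as given above. Whether reads of Ces1c were counted to Ces1a was not tested.

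Genes that share a step with the members gave the following counts, to be read against the same 4 shares of all tested genes. The counts of other esterases called lay below these shares in all 4 comparisons, and those of regulators did so at day 5 with either ligand. Of 4 genes for the retention of luminal enzymes and the egasyn partner, 4 rose with TCPOBOP at day 5 and 3 at day 60, none was called by limma with CITCO at day 5 (3 lower at an unadjusted p under 0.05), and 1 rose at day 60. Gusb, β-glucuronidase, the partner of Ces1e, rose by 0.45, 0.80 and 0.35 on the log2 scale in 3 comparisons, and its change with CITCO at day 5 was 0.05 (adjusted p = 0.495). Of 20 genes for lipid hydrolysis and lipoprotein export, TCPOBOP raised 11 and lowered 5 at day 5 and raised 7 and lowered 7 at day 60. CITCO raised 2 and lowered 3 at day 5, and raised 2 and lowered 4 at day 60. Mttp, which loads lipid onto apolipoprotein B, rose with TCPOBOP by 0.72 and 1.13, and Mgll, monoacylglycerol lipase, fell by 1.06 and 0.51. Of 8 tested other esterases, 1 rose and 1 fell with TCPOBOP at day 5, 2 rose and 1 fell at day 60, and none was called with CITCO at either age by limma (2 lower at day 5 and 3 higher at day 60 at an unadjusted p under 0.05). Of 9 regulators, 1 rose and 2 fell with TCPOBOP at day 5, 2 rose and 4 fell at day 60, 1 fell with CITCO at day 5 and 1 rose at day 60. Nr1i3 itself fell with TCPOBOP by 1.81 and 1.59, and it was not called with CITCO (0.52 and 0.18, adjusted p = 0.0538 and 0.668). Levels were computed against the mouse genome, so in hCAR-TG mice this value need not measure the human receptor. With corn oil it was 22.2 ± 4.78 and 8.70 ± 1.56 FPKM in hCAR-TG livers at day 5 and 60 (mean ± SD). In wild-type corn oil livers it was 58.0 ± 12.8 and 68.2 ± 12.9 FPKM.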

How the data were processed

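Libraries were made from flash-frozen whole liver with a stranded poly(A) kit, per the labels' protocols. The deposited tables give 24885 entries of FPKM per library with 95% interval bounds and a status, which the authors computed against mm10, per the file headers and the submitters' processing notes. The aligner, quantification tool and annotation are not given in the sources used here. Entries were summed by symbol (281 repeated symbols, none a member), and 5 genes with failed estimates were left out. FPKM + 1 was log2-transformed and the 12282 genes that reached 1 FPKM in 3 or more libraries were fitted in limma 3.58.1 (R 4.3.3), with 1 mean per group, 16 residual degrees of freedom, a trended robust prior, two-sided tests and Benjamini-Hochberg adjustment over all tested genes for each of 13 contrasts. The code was tested on simulated data. Relative depth was taken from 4383 genes' interval widths. Coding ends were read from GENCODE M21 and promoters from RefSeq.

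The 8 members are named in every comparison. Listed genes were open to naming where they were among the 4 called genes with the lowest adjusted p, and Cyp2b10, Nr1i3, Gusb and other Ces genes in any comparison. The members and lists were chosen with earlier results of these data known. Alternatives covered scaling, pseudocount (0.1), filter (none or 5 FPKM), library weights, prior, the read file suffix, the compared groups alone, a required log2 change of 1, a replicate block and leaving out each library.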

Additional observations from a re-analysis of the deposited data

Results flagged for a closer look

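These are the called differences between responses, or between age changes, of the 2 strains, ages or ligands, as log2 differences from limma's interaction contrasts. The comparisons share libraries, so the values are not independent of each other.

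The TCPOBOP response of wild-type livers was lower at day 60 than at day 5, with differences of -0.82 for Ces1b, -0.80 for Ces1c, -0.45 for Ces1d, -1.22 for Ces1e, -1.66 for Ces1g, -1.18 for Ces3a and -1.48 for Ces3b, and it was higher by 0.60 for Ces1f. In Ces1b and Ces1e the response was a rise at day 5 and a small fall at day 60 (-0.32 and -0.27). With 1 library left out in turn, the calls of these falls were lost in 3 and 4 of 6 cases. The difference of Ces1f was lost in 8 of 12 such cases. The CITCO response of hCAR-TG livers was higher at day 60 than at day 5 by 0.91 for Ces1f and lower for Ces1g (-1.29). With the read file suffix as a factor the value for Ces1f was 0.56, in a fit that rests on single libraries, as given above.

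At day 5 the CITCO response was below the TCPOBOP response, with differences of -0.47 for Ces1b, -0.51 for Ces1c, -0.44 for Ces1d and -0.52 for Ces1e. At day 60 it was above the TCPOBOP response by 0.55 for Ces1b, 0.36 for Ces1c, 0.46 for Ces1e, 0.82 for Ces1f, 1.68 for Ces3a and 1.70 for Ces3b. Receptor and ligand change together in these 10 differences and cannot be told apart.

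The age change with corn oil was smaller in hCAR-TG than in wild-type livers, with differences of -0.92 for Ces1f, -1.39 for Ces3a and -0.93 for Ces3b.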

How the results depend on the processing

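Of 2169 recomputed values, 1990 kept their direction and side of the threshold. Requiring a log2 change of 1 left fewer called members: 3 for TCPOBOP at day 5, 2 at day 60, 1 and 0 for CITCO at day 5 and 60, 4 and 1 for the differences of the TCPOBOP and CITCO responses between ages, 0 and 2 for CITCO minus TCPOBOP at day 5 and 60, 1 for the strains' corn oil livers at day 5 and 1 for the age change between strains. For CITCO at day 5, 3 members were called with only the compared groups. Over all tested genes this setting gave 624 calls, in place of 2099. The fit with the file suffix rests on a single corn oil library in that comparison, as given above. For the CITCO difference between ages, 4 were called with array weights (3279 of all tested genes, in place of 1227) and 2 to 4 when single libraries were left out. For CITCO minus TCPOBOP at day 5, 2 were called without the 3 libraries with pancreatic transcripts, an alternative chosen after seeing the data. There 2493 of all tested genes were called, in place of 4142. For the strains' corn oil livers at day 5, 6 were called with array weights (4571 of all tested genes, in place of 1297). At day 60, 1 was called with rescaling, the filter at 5 FPKM, array weights, a constant prior or only the compared groups. Over all tested genes these gave 687, 523, 1579, 603 and 246 calls, in place of 602. Beyond the fewer libraries or genes that some of these settings use, the cause was not tested.

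Signs turned only in members that were not called. For Ces1c with TCPOBOP at day 60 the value was -0.020 with rescaling, -0.014 with array weights and -0.028 to 0.14 when single libraries were left out. For Ces1b with CITCO at day 5 it was -2.01e-05, -0.035 and -0.055 to 0.071 in the same order. For CITCO minus TCPOBOP at day 5 without the 3 libraries it was 0.085 for Ces1g and 0.11 for Ces3a. For the strains' corn oil livers at day 5, Ces1b gave -0.045 with rescaling, -0.048 without the 3 libraries and -0.048 to 0.075 without single libraries. At day 60, Ces1b gave -0.020 with array weights and -0.063 to 0.079 without single libraries, Ces1c gave -0.14 to 0.025 without single libraries, and with the file suffix Ces1d, Ces1e and Ces1f gave -0.052, -0.11 and -0.13. The wild-type age change of Ces1c was 0.074 with rescaling, 0.049 with array weights and -0.072 to 0.098 without single libraries. The difference in age change between strains was -0.15 for Ces1b with array weights, and without single libraries -0.064 to 0.078 for Ces1b, -0.044 to 0.12 for Ces1d and -0.17 to 0.016 for Ces1e.

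Same-numbered libraries of the ligand and corn oil groups had correlations of their deviations from -0.14 to 0.26, and in no comparison did all 6 libraries correlate best with their own number, so the numbers were not taken to pair the libraries. With the replicate number as a block, no member's call changed and all tested genes called were 4343 in place of 4408 for TCPOBOP at day 5. The file suffix as a factor could not be fitted for 6 of the 13 contrasts. These were TCPOBOP at day 5, its difference between ages and CITCO minus TCPOBOP at day 5. The others were the strains' corn oil livers at day 5, the hCAR-TG age change and the difference in age change between strains. Over all tested genes, the count called had the highest ratio of largest to smallest over the settings in the strains' corn oil livers at day 5 (1297, and 207 with only the compared groups to 4571 with array weights), and the widest range in the hCAR-TG age change (8788, and 5688 with the filter at 5 FPKM to 11070 with no filter). Precision is limited by the 3 libraries per group and, for Ces3b and Ces1f at day 5, by intervals of up to 23.4% and 21.6% of the level.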
